A study of Sus scrofa with 36 samples.

Results

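The microfibril, matricellular and TGF-beta genes of the heart matrix, 10 in number, were followed in pig hearts over the first 4 weeks after birth. They are FBN1, FBLN2 and NID2, which code for proteins of microfibrils and basement membranes, VCAN, TNC, THBS1, THBS2 and CCN2, which code for provisional matrix and matricellular proteins, and TGFB1 and TGFBI, a growth factor and a protein named for its induction by that factor. They were taken by symbol from the 9815 genes of the deposited count table, and all 10 were among the 5526 genes with enough counts to be tested. The table held genes of chromosomes 1, 2, 6 and 13, and genes elsewhere in the genome were not analysed here.

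Hearts of domestic Yorkshire pigs were collected on postnatal day 1 (P1), P3, P7 and P28, and 3 pigs of each age were sequenced as total RNA by CD Genomics (batch cd), which gave 12 libraries. All pigs were fed normally, none received a further treatment, and both sexes were used, with the sex of each pig not given in the sources used here. Different pigs were taken at each age, so age could not be followed within an animal. The paper states that the samples came from the entire heart, with both myocytes and other cell types, and no single chamber is named in the sources used here. Libraries are named by age and by the numbers 4, 5 and 6 of the table.

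The matrix of the heart is a network made mainly by fibroblasts. Fibrillin-1 polymerizes into microfibrils, which carry elastic fibres and hold latent TGF-beta through its binding proteins, and fibulin-2 and nidogen-2 join such fibres and basement membranes to other matrix proteins. Versican, tenascin-C, thrombospondins and CCN2 are matricellular or provisional matrix proteins, which are known for high expression in growing and injured tissue and which modulate adhesion, while thrombospondin-1 can activate latent TGF-beta. In the neonatal pig, the heart loses most of its capacity to regenerate within days of birth, and the ages sampled here follow that window and the weeks after it.

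The table's genes, of 4 chromosomes only, held 8887176 to 14883849 counts per library, which is a part of the sequencing depth. The 10 genes took 0.353% to 0.834% of these counts, and a single member had 272 to 59422 counts in a library. Signal recognition particle RNA took 7.09% to 19.7% of the counts, with 19.5%, 14.1% and 12.9% in the P1 pigs and 7.88%, 12.0% and 11.4% in the P28 pigs, which did not overlap. Its part in the differences between P1 and P28 was not tested. Levels are given as CPM, the counts of a gene relative to the TMM-scaled library size. That size counted only tested genes of the table, so CPM and TMM factors are relative to the 4 chromosomes and are not genome-wide. A difference was called when edgeR's quasi-likelihood test gave an unadjusted p of 0.05 or less and the log2 fold change was over 0.5 in either direction, the thresholds of the study, and p-values adjusted by Benjamini-Hochberg over the 5526 genes stand beside the calls. The 7 cardiomyocyte markers that were measured summed to 72660 to 101937 CPM per library, and none of them was at 0. Fewer cells of a type and less RNA per cell cannot be told apart in such tissue samples.

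Of the 10 genes, 6 were lower at P28 than at P1, and none was called higher. FBN1 fell 3.53-fold, TNC 6.49-fold, VCAN 2.06-fold, FBLN2 1.80-fold, THBS2 1.67-fold and TGFBI 1.62-fold. Without the P1 pig numbered 4, the fall of TNC was 3.80-fold. NID2, THBS1, CCN2 and TGFB1 were not called, with log2 fold changes of 0.51, 0.35, −0.02 and 0.38. In the whole table, 12.1% of the tested genes were called lower and 11.0% higher in the same comparison. At an adjusted p under 0.05, 6 of the 10 genes and 15.3% of all tested genes passed. The median log2 fold change was −0.72 for the 10 genes and 0.00 for all tested genes. When the 4 ages were tested together for any difference, FBN1, FBLN2, VCAN, TNC and TGFBI had an adjusted p under 0.05, against 21.4% of all tested genes.

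**Figure D1:**
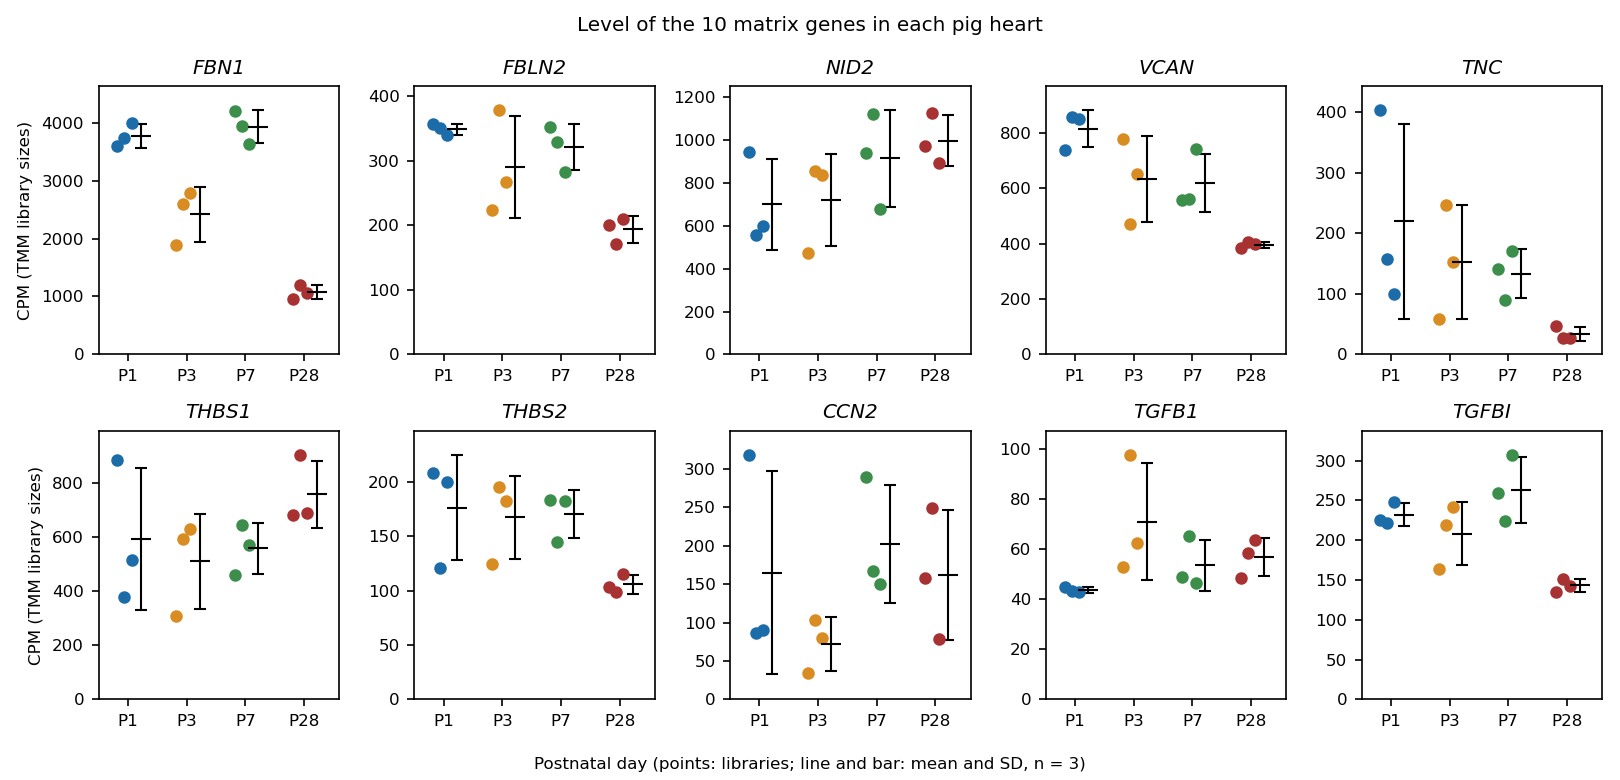
CPM of the 10 matrix genes (vertical axes, from 0, one scale per gene) at P1, P3, P7 and P28 (horizontal axes). Points are libraries, and lines with bars are means and SD of 3 pigs. FBN1, FBLN2, VCAN, TNC, THBS2 and TGFBI were lower in all 3 P28 libraries than in every earlier library.

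FBN1 codes for fibrillin-1 and lies on chromosome 1 from 123102009 to 123359649 (ENSSSCG00000004658). Its CPM was 3591, 3731 and 4002 at P1 and 1885, 2593 and 2778 at P3, in the order of pigs 4, 5 and 6. It was 4199, 3949 and 3630 at P7 and 954, 1195 and 1060 at P28. The P3 libraries were all below those of P1 and P7, which overlapped, and the P28 libraries were the lowest and overlapped with no other age. The P3 level of 2418 ± 471 CPM (SD, n = 3) was below the P1 level of 3775 ± 209 CPM (log2 fold change −0.64, SE 0.15, adjusted p = 0.111). P7 was above P3 by 0.70 (SE 0.15, adjusted p = 0.0379) and differed from P1 by 0.06. From P7 to P28 the change was −1.88 (SE 0.16, adjusted p = 1.41e-04), which had the smallest p of all tested genes in that comparison. Without the P3 pig numbered 4, the difference between P1 and P3 was −0.494 (adjusted p = 0.0763), just under the size needed for a call, and the other P3 pigs still lay below all P1 pigs.

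FBLN2 codes for fibulin-2, a linker of elastic fibres and basement membranes (ENSSSCG00000011609, chromosome 13, 70757265 to 70830388). FBLN2 CPM was 356, 350 and 340 at P1, and 224, 378 and 267 at P3. The P7 libraries had 353, 329 and 283 and the P28 libraries 200, 170 and 210. The P1 libraries lay within 1.05-fold of each other, the P3 libraries spread 1.68-fold, and all P28 libraries lay below all others. Fibulin-2 mRNA at P28 was below that at P1 by −0.85 on the log2 scale (SE 0.17, adjusted p = 0.00683). No difference among P1, P3 and P7 was called for FBLN2 with all pigs, and P3 was called lower than P1 without the P3 pig numbered 5, at −0.504.

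NID2 codes for nidogen-2, a basement membrane protein (ENSSSCG00000005030, chromosome 1, 181699112 to 181772750). Its CPM was 945, 556 and 601 at P1, and 471, 856 and 835 at P3. At P7 it was 941, 1123 and 677, and at P28 it was 972, 1128 and 891. NID2 differed from FBN1 and FBLN2 in that its P28 libraries were not low, and the P1 pig numbered 4 reached the P28 range while the other P1 pigs did not. The P28 mean of 997 ± 120 CPM against 701 ± 213 CPM at P1 (SD, n = 3) gave a log2 fold change of 0.51 with a 95% confidence interval of −0.05 to 1.07 (adjusted p = 0.203). Without the P1 pig numbered 4, it was 0.78 and was called higher (adjusted p = 0.0762), and without the P3 pig numbered 4, or with no filter on low counts, it was also called, at 0.50.

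VCAN codes for versican, a large proteoglycan that binds hyaluronan in loose, growing tissue (ENSSSCG00000014136, chromosome 2, 91358399 to 91811208). VCAN CPM was 738, 856 and 849 at P1, and 778, 470 and 650 at P3. The P7 pigs had 557, 561 and 741 and the P28 pigs 384, 404 and 399. The P28 libraries were the lowest and the closest to each other, within 1.05-fold. The fall from P1 to P28 was −1.04 on the log2 scale (SE 0.17, adjusted p = 0.00232). Between P1 and P7 the log2 fold change of −0.39 had an unadjusted p of 0.0398 in edgeR's test but stayed under the size needed for a call. VCAN was called lower at P7 than at P1 without the P7 pig numbered 6, at −0.54, and lower at P3 than at P1 without the P3 pig numbered 4, also at −0.54.

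TNC codes for tenascin-C, a matricellular protein of embryonic and wounded tissue (ENSSSCG00000005494, chromosome 1, 255532449 to 255630377). TNC CPM was 403, 157 and 99.5 at P1, and 59.2, 247 and 152 at P3. At P7 it was 140, 89.3 and 171, and at P28 it was 47.4, 27.3 and 26.8. TNC varied 4.04-fold among the P1 pigs and 4.17-fold among the P3 pigs, yet every P28 library was below every earlier one. The log2 fold change from P1 to P28 was −2.70 with a wide 95% confidence interval of −3.91 to −1.49 (adjusted p = 0.00761). The P1 pig numbered 4 weighed on this size, since without it the change was −1.93 (adjusted p = 0.0245).

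THBS1 and THBS2 code for thrombospondins 1 and 2, a pair of similar trimeric matricellular proteins that bind CD47 and CD36 (ENSSSCG00000004789, chromosome 1, 131728781 to 131746115, and ENSSSCG00000004012, chromosome 1, 855030 to 882473). THBS1 CPM was 884, 379 and 514 at P1, 308, 591 and 629 at P3, 458, 645 and 570 at P7, and 680, 901 and 689 at P28. THBS2 CPM was 208, 121 and 199 at P1, 124, 195 and 182 at P3, 184, 145 and 182 at P7, and 103, 98.7 and 115 at P28. The P28 libraries of THBS2 were below all others, whereas those of THBS1 were above all P3 and P7 libraries and overlapped with P1 through the P1 pig numbered 4. THBS2 was lower at P28 than at P1 by −0.74 on the log2 scale (SE 0.21, adjusted p = 0.0357). For THBS1 the difference was 0.35 with a 95% confidence interval of −0.31 to 1.01 (adjusted p = 0.461), and without the P1 pig numbered 4 it was 0.76 and was called higher (adjusted p = 0.102).

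Divided by the length that the table gives for each gene, THBS1 stood at 102 ± 44.9 CPM per kb at P1 and 130 ± 21.5 at P28, and THBS2 at 23.8 ± 6.51 and 14.3 ± 1.17 (SD, n = 3). The ratio of THBS1 to THBS2 on this scale was 5.41, 4.0 and 3.28 in the P1 pigs, 3.15, 3.85 and 4.39 in the P3 pigs and 3.17, 5.66 and 3.98 in the P7 pigs. At P28 it was 8.41, 11.6 and 7.59. All 3 P28 libraries had a higher ratio than all 9 libraries of the earlier ages. This ratio was looked at after the levels had been seen and is given as a description.

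**Figure D2:**
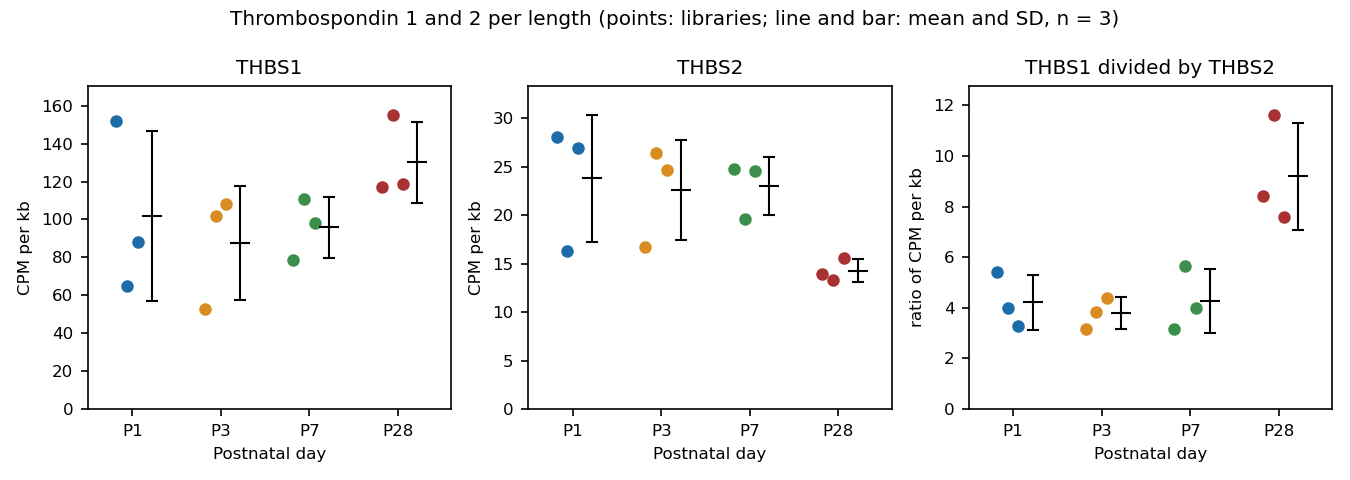
THBS1 and THBS2 as CPM per kb of gene length and the ratio of both (vertical axes, from 0) at each age (horizontal axis). Points are libraries, and lines with bars are means and SD of 3 pigs. The ratio was 9.20 ± 2.12 at P28 and between 3.80 and 4.27 on average at the earlier ages.

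CCN2 codes for a secreted matricellular protein also known as connective tissue growth factor, a much used readout of TGF-beta and YAP activity (ENSSSCG00000004192, chromosome 1, 31673798 to 31677696). Its CPM was 317, 87.0 and 90.0 at P1, and 34.4, 104 and 79.3 at P3. At P7 CCN2 was 290, 167 and 150, and at P28 it was 158, 249 and 79.1. CCN2 spread 3.65-fold among the P1 pigs, of which the one numbered 4 was high, 3.01-fold among the P3 pigs and 3.15-fold among the P28 pigs. P3 was lower than P1 by −1.19, which missed the threshold (unadjusted p = 0.0521 in edgeR's test), and without the P1 pig numbered 4 the value was −0.28. The lowest P7 library of CCN2 lay above the highest P3 library, and P7 was called higher than P3 by 1.48 (SE 0.56, adjusted p = 0.177). That call was lost without the P3 pig numbered 4, at 1.14, and without the P7 pig numbered 4, at 1.13. Between P1 and P28 the log2 fold change of CCN2 was −0.02, with a 95% confidence interval of −1.20 to 1.15 that does not exclude a 2-fold change in either direction, and without the P1 pig numbered 4 it was 0.87 and not called. P28 was above P3 by 1.16, which was not called (95% confidence interval −0.04 to 2.36, adjusted p = 0.167), but was called higher in 4 of the 12 fits that left out 1 pig.

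TGFB1 codes for transforming growth factor beta 1 (ENSSSCG00000003017, chromosome 6, 49332169 to 49349048). TGFB1 CPM was 45.0, 43.1 and 43.0 at P1, and 53.0, 97.5 and 62.5 at P3. The values were 49.1, 65.3 and 46.4 at P7 and 48.4, 58.6 and 63.7 at P28. All 9 later libraries lay above the 3 P1 libraries, which were within 1.05-fold of each other. TGFB1 was called higher at P3 than at P1, by 0.70 on the log2 scale (SE 0.21, adjusted p = 0.199). The P3 pig numbered 5 decided that call, since without it the difference was 0.40. At P28 the difference from P1 was 0.38, with a 95% confidence interval of −0.08 to 0.84 (adjusted p = 0.245).

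TGFBI codes for an adhesion protein that binds collagens and integrins (ENSSSCG00000014316, chromosome 2, 138191804 to 138225366). TGFBI CPM was 226, 221 and 249 at P1, and 164, 220 and 241 at P3. At P7 it was 260, 224 and 307, and at P28 it was 136, 152 and 142. Its P28 libraries were below all others and within 1.12-fold of each other. TGFBI was lower at P28 than at P1 by −0.70 (SE 0.15, adjusted p = 0.0105), while TGFB1, the ligand it is named after, was not called in either direction between these ages.

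The steps between ages were then compared. Between P1 and P3, 1 of the 10 genes was called higher, TGFB1, and 1 lower, FBN1, against 6.95% of the tested genes higher and 3.64% lower. Neither passed an adjusted p of 0.05, which 3 genes of the whole table did. Among the marker lists, 2 of 3 smooth muscle and pericyte and 1 of 3 erythroid markers were called higher there. Called lower were 1 of 9 leukocyte and 1 of 2 platelet markers and 1 of 9 immediate early genes. No fibroblast, cardiomyocyte, endothelial or proliferation marker was called, and the part of these lists in the changes of TGFB1 and FBN1 was not tested. Between P1 and P7, none of the 10 was called in edgeR's test, and 1, VCAN, had an unadjusted p under 0.05, against 7.65% of the tested genes called higher and 4.07% lower. DESeq2 and limma voom also called none of them there, while total counts with no TMM called NID2 higher, at 0.55. Without the P1 pig numbered 4, CCN2 and NID2 were called higher, at 1.19 and 0.66, and without the P7 pig numbered 6, VCAN was called lower, at −0.54. Between P3 and P7, FBN1 and CCN2 were called higher and none lower, against 6.51% and 6.46%. FBN1 had an adjusted p under 0.05 in that step and CCN2 did not. In the same step, all 4 proliferation markers, 2 of 6 endothelial, 1 of 6 fibroblast, 1 of 9 leukocyte and 1 of 2 platelet markers were called higher, and 1 of 3 smooth muscle and pericyte markers and 1 of 9 immediate early genes lower. No cardiomyocyte or erythroid marker was called, and the part of these lists in the changes of FBN1 and CCN2 was not tested.

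From P7 to P28, FBN1, FBLN2, VCAN, TNC, THBS2 and TGFBI were called lower and none of the 10 higher, against 14.0% of all tested genes lower and 11.1% higher. Their log2 fold changes were −1.88 for FBN1, −0.73 for FBLN2, −0.65 for VCAN, −1.98 for TNC, −0.69 for THBS2 and −0.88 for TGFBI, and all 6 had an adjusted p under 0.05. Against P3, a comparison added after the other results had been seen, the 6 values were −1.18, −0.58, −0.68, −2.17, −0.66 and −0.54. All 6 were called lower there, with adjusted p-values of 8.41e-04, 0.0363, 0.0195, 0.0188, 0.0515 and 0.0316 in the same order, and none of the 10 was called higher, against 13.7% and 10.3% of the tested genes. These comparisons share the 3 P28 libraries with the comparison of P28 with P1 and are not independent of it. NID2 and THBS1 were not called in either, with differences from P3 of 0.47 and 0.57 and from P7 of 0.13 and 0.44, but THBS1 was called higher at P28 than at P3 without the filter on low counts, at 0.57, and without the P1 pig numbered 4, at 0.56. Leaving out the P3 pig numbered 5 or the P28 pig numbered 5 ended the FBLN2 call against P3, at −0.35 and −0.495, and leaving out the P3 pig numbered 6 ended that of TGFBI, at −0.44.

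**Figure D3:**
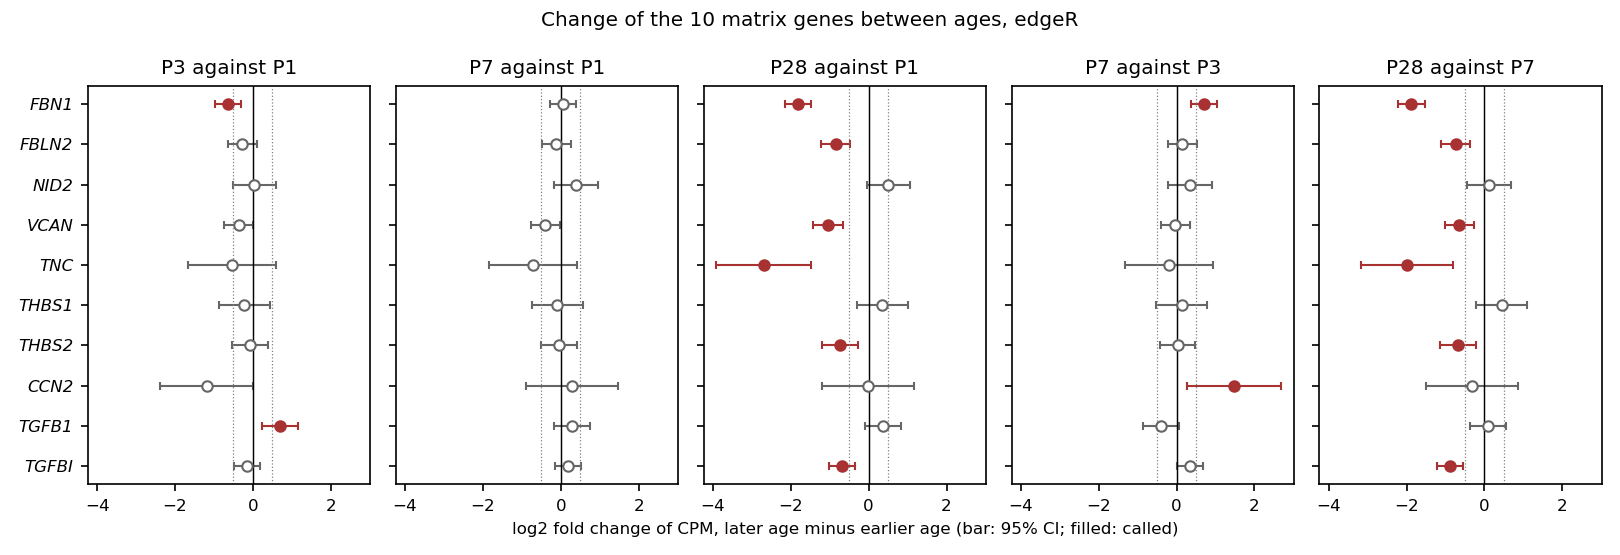
Log2 fold change of CPM with 95% confidence interval (horizontal axes) for the 10 genes (vertical axis) in 5 comparisons of ages. Filled red points are called, and dotted lines mark 0.5 in either direction. Most filled points lie in the panels with P28, where 6 genes are called lower, and the panel of P7 against P1 has none.

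When the mean of P3, P7 and P28 was set against P1, 3 of the 10 genes were called lower and none higher, against 4.52% of the tested genes lower and 4.89% higher. FBN1 was lower by −0.80 (adjusted p = 0.00530), VCAN by −0.60 (adjusted p = 0.0369) and TNC by −1.32 (adjusted p = 0.116). The TNC call was lost without the P1 pig numbered 4, where the difference was −0.54. In the same comparison, 2 of 6 fibroblast markers were called lower, and 1 of 7 cardiomyocyte and 1 of 3 erythroid markers higher. No marker of the other lists was called, and the part of these lists in the 3 lower genes was not tested.

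Only per length can the levels of different genes be compared. On that scale FBN1 stood highest of the 10 genes at P1, P3 and P7, at 392 ± 21.6, 251 ± 48.9 and 407 ± 29.6 CPM per kb (SD, n = 3). At P28 NID2 was first, at 207 ± 24.9, followed by THBS1 at 130 ± 21.5 and FBN1 at 111 ± 12.5. The NID2 and THBS1 libraries did not overlap at P28, and those of THBS1 and FBN1 did. TGFBI and CCN2 followed at 53.1 ± 3.00 and 52.7 ± 27.7, which overlapped, and FBLN2 at 44.6 ± 4.75. TGFB1 at 18.0 ± 2.46, VCAN at 15.2 ± 0.403 and THBS2 at 14.3 ± 1.17 were near each other, and TNC was last, at 3.78 ± 1.32. The table gives VCAN a length of 26088 bases, the longest of the 10, over a span of 452810 bases, whereas the RefSeq gene spans 129498 bases. If the table's gene model is too long, the VCAN level per kb and its place in this order are too low.

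Individual pigs moved several of the genes at once. The P1 pig numbered 4 had the highest level of its age for 7 of the 10 genes, namely FBLN2, NID2, TNC, THBS1, THBS2, CCN2 and TGFB1. The P3 pig numbered 4 had the lowest level of its age for 9 of the 10, all but VCAN, for which it was highest. The share of all tested genes with the same ranks was not computed, so these counts do not set the 10 genes apart. The P1 pig numbered 4 also stood apart from the others of its age over the whole table. The chi-square of its counts per degree of freedom was 129 and 120 against the other P1 pigs, which gave 15.1 between them. Pairs within the later ages gave 20.6 to 210, and single pigs stood apart there too. The P28 pig numbered 4 gave 73.9 and 70.1, against 20.6 between the others, and the P3 pig numbered 5 gave 120 and 110, against 65.3. The P1 pig numbered 4 had the lowest TMM factor of the 12 libraries, 0.900. Summed CPM of 9 immediate early genes, which are known to respond quickly to handling and stress, was 705 in that P1 pig against 407 and 502 in the others of its age, and 301 in that P3 pig against 649 and 547. At P7 this sum was 333 to 374 and at P28 it was 1036 to 1543, with 4 of the 9 genes called higher at P28 than at P1. NR4A3 took most of that rise, with a mean of 101 CPM at P1 and 575 at P28, and the other 8 genes summed to 354 to 563 CPM at P1 and 545 to 694 at P28. Without NR4A3, the P1 pig numbered 4 was still the highest of its age, at 563 CPM, and the P3 pig numbered 4 the lowest, at 282. The part of this list in the levels of THBS1, CCN2 and NID2 was not tested.

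Over the 12 libraries, FBN1 was most like TGFBI (Pearson r of log2 CPM 0.92), THBS2 was most like TGFBI (0.83), TNC most like FBLN2 (0.85) and FBLN2 most like FBN1 (0.88). NID2 and THBS1 were most like each other (0.82), and CCN2 was most like NID2 (0.74). After the mean of each age was taken out, r remained 0.84 for NID2 with THBS1, 0.82 for CCN2 with NID2 and 0.64 for FBN1 with TGFBI. VCAN was most like FBN1 over all libraries (0.75), but within ages the value was −0.49, and with FBLN2 it was −0.91. The highest value of TGFB1 over all libraries was 0.37, for NID2, and within ages it was 0.75, for FBLN2. The points share age, library and depth, and these values are descriptions.

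**Figure D4:**
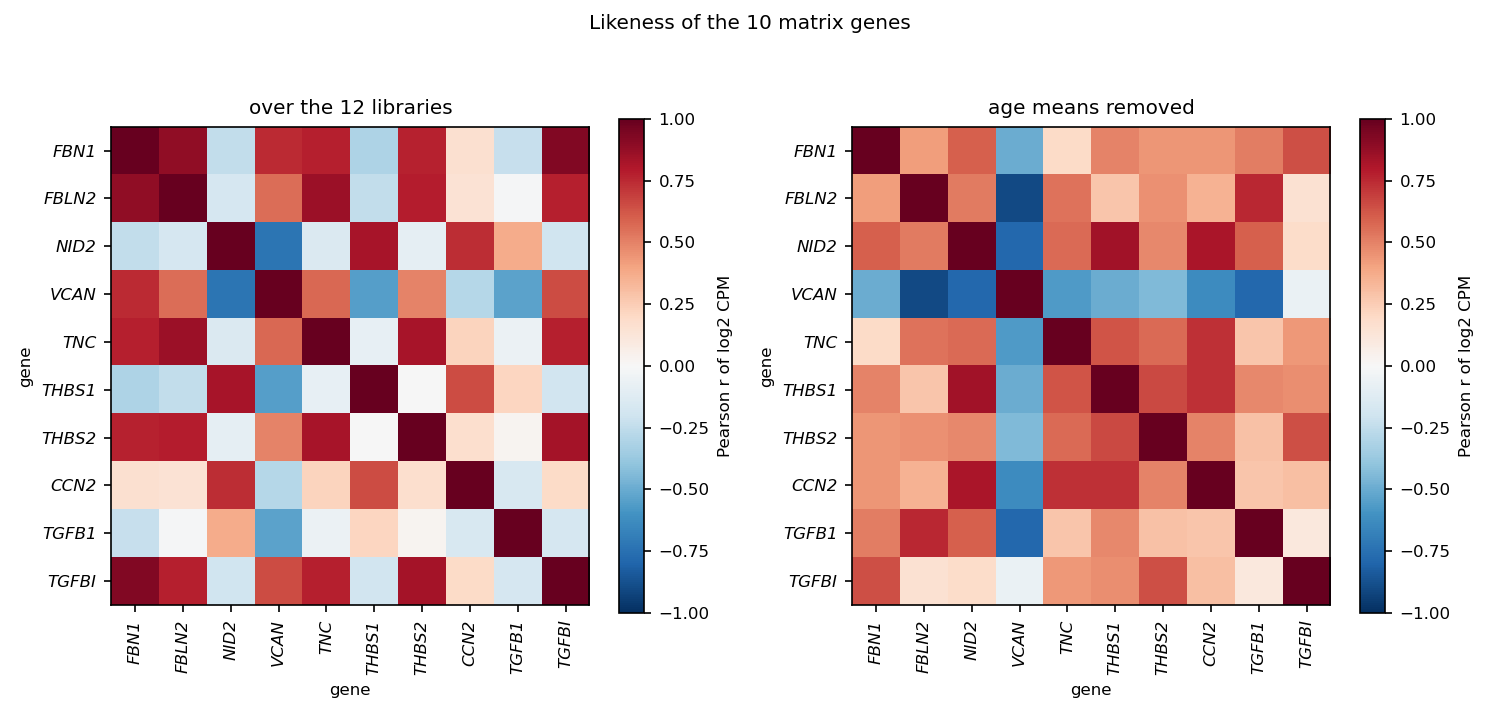
Pearson r of log2 CPM for each pair of the 10 genes (both axes), over the 12 libraries (left) and after the mean of each age was removed (right), with colour from −1 to 1. On the left NID2, THBS1 and CCN2 group apart from FBN1, FBLN2, TNC, THBS2 and TGFBI, and on the right VCAN has negative values with all 9 others.

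The other genes with a profile most like the mean of the 10 were SLC12A4 (r = 0.97), a potassium-chloride cotransporter, GFOD2 (0.94), a gene given no symbol in the table (ENSSSCG00000003845, 0.93), C2CD2 (0.92) and MGAT1 (0.91), an enzyme of N-glycan synthesis. SLC12A4 stood at 258 ± 58.1 CPM at P1 and 186 ± 18.2 at P28. MGAT1 stood at 210 ± 19.9 CPM at P1, 200 ± 13.4 at P3, 207 ± 6.62 at P7 and 169 ± 5.48 at P28. Both were lowest on average at P28. The mean profile, in standardized units, did not follow age alone. It was lowest in the P3 pig numbered 4, at −0.86, against −0.72, −0.46 and −0.70 at P28. Its highest value was 0.80, in the P1 pig numbered 4.

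Other genes of the same pathways, from lists of known genes and apart from the 10, had calls in both directions, and the genes named below are single genes of their lists. Of 11 measured elastic fibre and microfibril genes, 2 were called lower and 1 higher at P28 than at P1, and such small counts do not set the list apart from the 12.1% and 11.0% of all tested genes. ADAMTS17, a metalloprotease linked to fibrillin microfibrils, was at 6.68 ± 2.20 CPM at P1, 20.95 ± 3.26 at P7 and 2.55 ± 0.705 at P28, and fell by 1.39 on the log2 scale between P1 and P28 (adjusted p = 0.00800). MFAP2, a microfibril protein that binds fibrillin, fell by 0.88 (adjusted p = 0.0485). ADAMTSL5, which binds fibrillin-1, rose from 99.4 ± 52.2 to 223 ± 14.0 CPM, by 1.17 (adjusted p = 0.0308). The median log2 fold change of the 11 genes was −0.12, against 0.00 for all tested genes.

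Among matricellular and provisional matrix genes, 14 were measured and 10 passed the filter on low counts, of which 5 were called lower and 2 higher at P28 than at P1, with a median of −0.36. FSTL1, a secreted glycoprotein of the follistatin family, stood at 2064 ± 20.7 CPM at P1, 1415 ± 266 at P3, 2055 ± 29.5 at P7 and 894 ± 66.4 at P28. Its fall of 1.21 between P1 and P28 had an adjusted p of 3.16e-04, and like FBN1 it was called lower at P3 than at P1 and higher at P7 than at P3. HAPLN1 and HAPLN4, link proteins that tie versican and related proteoglycans to hyaluronan, fell by 2.85 (adjusted p = 0.0177) and 1.40 (adjusted p = 0.0217). Both were at low levels, HAPLN1 at 11.7 ± 1.98 CPM at P1 and 1.65 ± 1.37 at P28, and HAPLN4 at 5.60 ± 1.11 and 2.13 ± 0.831. SPOCK1, a proteoglycan, fell by 1.73 (adjusted p = 0.0372) from a level of only 4.16 ± 3.32 CPM. HAS3, a hyaluronan synthase, rose by 0.99 (adjusted p = 0.0263), from a low level of 5.02 ± 1.68 CPM to 9.96 ± 0.449. THBS4, another thrombospondin, was at 22.8 ± 4.51 CPM at P1, 90.9 ± 14.9 at P7 and 36.7 ± 6.83 at P28. Its increase was 1.99 from P1 to P7 (adjusted p = 0.00139) and 0.68 from P1 to P28 (adjusted p = 0.0523), so that it peaked at P7, when neither THBS1 nor THBS2 differed from P1 by a call.

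Of 24 measured genes of TGF-beta signalling and its targets, 23 were tested, 3 were called lower and 4 higher at P28, with a median of 0.00, and these counts were near the shares of all tested genes given above. The inhibitory SMAD genes SMAD7 and SMAD6 fell by 1.26 (adjusted p = 0.00257) and 0.91 (adjusted p = 0.0165), and SMAD7 was at 87.4 ± 27.6 CPM at P1 and already at 43.5 ± 6.05 at P3. CILP, a matrix protein of cardiac fibroblasts, was at 82.4 ± 24.8, 32.6 ± 14.6, 78.8 ± 6.86 and 24.1 ± 5.59 CPM over the 4 ages and fell by 1.77 between P1 and P28 (adjusted p = 0.00349). The proprotein convertases PCSK5 and PCSK6 rose by 0.95 (adjusted p = 0.00446) and 0.56 (adjusted p = 0.00761), and ACVR2B, an activin receptor, rose by 1.12 (adjusted p = 0.0356). The receptor TGFBR1 was not called, at −0.24, and TGFBR2 had a change of −0.36 (adjusted p = 0.0462) that stayed under the size needed for a call. In a list of integrins and other cell surface receptors of these matrix proteins, 4 genes were measured, and 1 was called between P1 and P28, the integrin gene ITGB5, higher by 0.57 (adjusted p = 0.0645). ITGB5 is also one of the 4 genes called higher in the TGF-beta list.

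**Figure D5:**
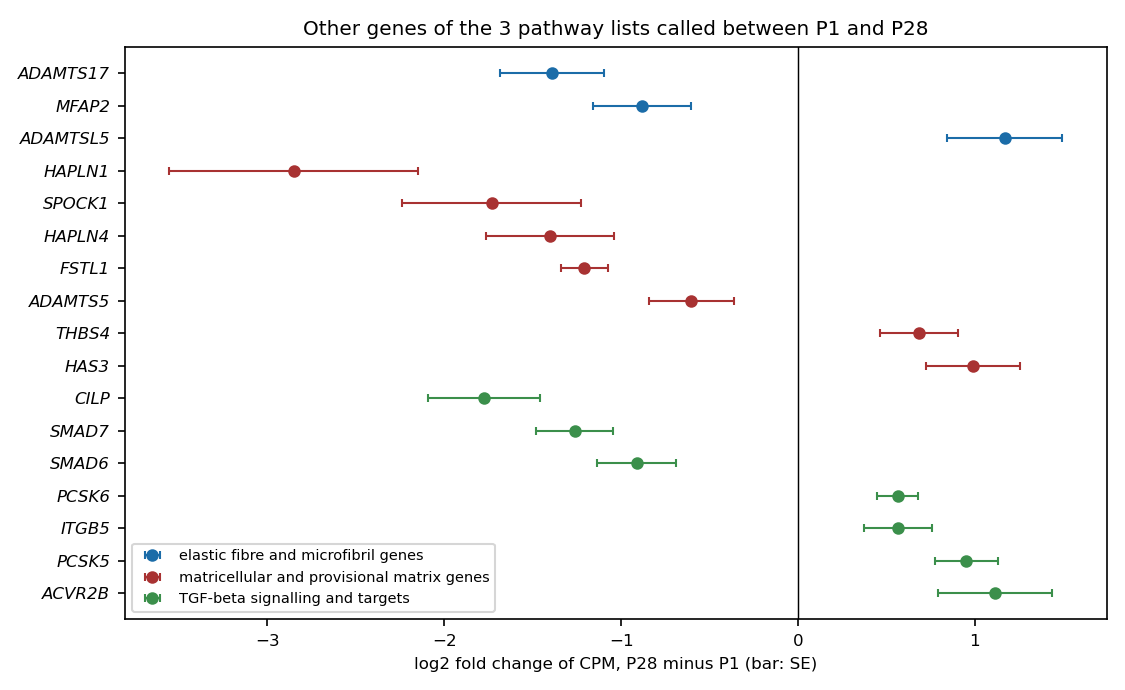
Log2 fold change between P1 and P28 with its SE (horizontal axis) for the genes outside the 10 that were called in the 3 pathway lists (vertical axis, coloured by list). Points to the left of 0 were lower at P28. HAPLN1 had the largest fall, at −2.85, to a mean of only 1.65 CPM at P28, and ADAMTSL5 the largest rise, at 1.17.

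Markers of cell types were read beside these changes. The table held only part of each marker list, such as 3 of 14 smooth muscle and pericyte and 4 of 20 proliferation markers. Of 27 listed fibroblast markers, 6 were measured, and COL1A1, PDGFRA and DCN were among those absent. Of the 6 measured fibroblast markers, 3 were called lower at P28 than at P1 and none higher. TCF21, a transcription factor of cardiac fibroblasts, changed by −1.05 (adjusted p = 6.78e-04), TBX18 by −0.83 (adjusted p = 0.00390) and CDH11 by −1.52 (adjusted p = 0.0376), while the other 3 were not called, with values of 0.06 for GSN, the most abundant of the list, 0.05 for ABI3BP and 0.73 for NEGR1. The summed level of the 6 was 1709 to 1889 CPM at P1 and 1562 to 1863 at P28, and none was at 0. The median of the list was −0.39, and its part in the lower levels of FBN1, VCAN, TNC and the other 3 genes was not tested. Proliferation markers were called lower for 3 of 4, with sums of 144 to 196 CPM at P1, 494 to 671 at P7 and 48.8 to 140 at P28.

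Macrophage and leukocyte markers were called higher at P28 than at P1 for 5 of 9 tested out of 10 measured, with a sum of 589 to 838 CPM at P1 and 842 to 1338 at P28. Endothelial markers were higher for 1 and lower for 1 of 6, with sums of 898 to 1159 and 864 to 922 CPM, and cardiomyocyte markers were higher for 2 and lower for 1 of 7. None of the 3 smooth muscle and pericyte markers was called between P1 and P28, with 456 to 516 and 280 to 539 CPM, but at P3, where TGFB1 was called higher than at P1, so were 2 of these 3. PDGFRB had a mean of 215 CPM at P1 and 395 at P3, and NOTCH3 174 and 331. The summed list was 529, 1281 and 701 CPM in the P3 pigs, and the one numbered 5, which decided the TGFB1 call, had the highest sum of all libraries. Platelet markers were higher for 1 of 2 tested and erythroid markers for 1 of 3. How far these lists bear on the levels of NID2, THBS1 and TGFB1 was not tested.

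The falls of the 6 genes from P7 and from P3 to P28 went with calls in the same lists. From P7 to P28, 3 of 6 fibroblast and 2 of 6 endothelial markers were called lower and none higher, 1 of 3 smooth muscle and pericyte markers and all 4 proliferation markers were lower, 4 of 7 cardiomyocyte markers were higher and 1 lower, and 7 of 9 leukocyte markers were higher. Of the immediate early genes, 6 of 9 were higher from P7 and 4 of 9 from P3, and none was lower. Platelet markers were higher for 1 and lower for 1 of 2 from P7 and higher for 1 from P3, and erythroid markers were lower for 1 of 3 from P7 and higher for 1 and lower for 1 from P3. From P3 to P28, 3 of 6 fibroblast, 3 of 6 endothelial, 2 of 3 smooth muscle and pericyte and 3 of 4 proliferation markers were lower, and 7 of 9 leukocyte, 1 of 7 cardiomyocyte and 1 of 6 endothelial markers were higher. The part of these lists in the falls of FBN1, FBLN2, VCAN, TNC, THBS2 and TGFBI was not tested.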

How the data were processed

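The authors made the total RNA libraries after rRNA depletion and deposited read counts per gene, without normalization, for 12 libraries, from which the CPM values were computed here. The submitters' processing notes name STAR 2.7.9a and Sscrofa10.2 for the series. The counter, strand setting and annotation of the gene table are not given in the sources used here, and its positions overlapped RefSeq Sscrofa11.1 for the 9 of the 10 genes that matched by symbol. The table ends within a line of chromosome 2, and that line was left out. Intervals cover the spread between pigs.

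Genes with at least 10 counts in at least 3 libraries were fitted in edgeR 4.0.16 (R 4.3.3) with TMM, all 4 ages in one quasi-likelihood model. limma 3.58.1 voom and DESeq2 1.42.0 were alternatives. Scripts were tested on simulated data. Likeness used log2 CPM with a prior count of 2. Plots used matplotlib 3.10.9. The genes named outside the 10 were, per pathway list, up to 6 called between P1 and P28 by smallest p, any receptor called, TGFBR1 and TGFBR2 (chosen later), and the 5 most like the mean profile; the marker genes named were chosen after their values were seen. Members and lists were chosen with earlier results of these data known. Comparisons of P3 with P28 and the thrombospondin ratio were added after the data had been seen. Replicates are separate pigs at each age; same-numbered pigs are different animals.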

Additional observations from a re-analysis of the deposited data

How the results depend on the processing

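With other scalings, filters, tools or the rule of an adjusted p under 0.05, no called log2 fold change of the 10 genes turned its direction, and of 690 such values 676 kept their side of the threshold, 9 gained a call and 5 lost one, all 5 under the adjusted rule. Of 840 values with 1 pig left out, 809 kept it, 8 lost it and 23 gained one. Between P1 and P28 and between P7 and P28, the number of genes called was 6 to 8 and 6 to 6 with 1 pig left out, and 8 without the P1 pig numbered 4, where NID2 and THBS1 were called higher. The number was 2 to 3 for P1 against P3, 0 to 2 for P1 against P7 (2 without the P1 pig numbered 4, CCN2 and NID2), 3 to 4 for P1 against the later ages, 1 to 3 for P3 against P7 and 5 to 8 for P3 against P28, whose alternatives, like the comparison, were chosen after seeing the data. A rule of an adjusted p under 0.05 left 0 of the genes between P1 and P3 and 1 between P3 and P7. With total counts and no TMM, 1 was called between P1 and P7, NID2 at 0.55. CCN2 was called lower at P3 than at P1 without the filter, at −1.19, and with total counts, at −1.12, while without the P1 pig numbered 4 it was −0.28 and not called. CCN2 was called higher at P28 than at P3 without the filter, with total counts and with only the ages compared, at 1.14 to 1.16. Against the mean of the later ages, NID2 was called higher than at P1 without the P1 pig numbered 4, at 0.59, TGFB1 higher without the P3 pig numbered 4, at 0.51, and with total counts, at 0.52, and THBS2 lower without the P1 pig numbered 5, at −0.51. TGFB1 was called lower at P7 than at P3 without the P3 pig numbered 4 or the P7 pig numbered 5, at −0.58 and −0.54.

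Numbers 4 to 6 are shared between ages but mark different pigs. The deviations of same-numbered pigs correlated between −0.19 and 0.33 over 18 pairs, 5 of them over 0.1, so over all ages the numbers were not taken to pair the libraries. The 3 pairs of P1 with P28 were among those over 0.1, at 0.14 to 0.33. With the replicate block the count between P1 and P28 was 6, as without it, and no other count of called genes changed.

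The causes of these shifts were not tested. With 3 pigs per age, the intervals of CCN2, TNC and THBS1 were wide, and a difference that was not called there is not shown to be absent.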
